A study of Mus musculus with 6 samples.

Results

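The genes described here are 50 genes of mitosis and the spindle checkpoint: the mitotic cyclins and kinases, the checkpoint proteins, the kinetochore, the spindle motors, the cytokinesis machinery, the condensins, and the regulator Foxm1 and the marker Mki67. They were chosen by name from general knowledge of mitosis, with earlier results of these data known. All 50 were found among the 27179 identifiers of the count table. Each passed the filter on low counts that left 14199 genes for testing. RNA was taken from mouse embryonic stem cells of the ES-E14TG2a background that carry FLAG-tagged Trim71, and poly(A)-selected libraries were sequenced. In 3 libraries (A, B and C) the tagged Trim71 had the R783H change, a substitution linked to hydrocephalus, and in the other 3 it was wild type (WT). Both groups therefore carry the tag, and both grew on gelatin in a serum-containing medium with LIF and the inhibitors CHIR99021 and PD0325901. Trim71 binds RNA through its NHL domain, and the comparison asks which transcripts differ when this residue is altered. How many alleles carry the change is not given, nor what the letters stand for (clones, cultures or library preparations), so the tests measure only the spread between these libraries, which may be technical.

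Cells enter mitosis when cyclin B and Cdk1 become active, and the kinases Plk1, Aurora A and Aurora B then drive chromosome condensation, spindle assembly and chromosome attachment. The spindle checkpoint holds back the ubiquitin ligase APC/C by keeping its activator Cdc20 bound until all kinetochores are attached. Once released, APC/C with Cdc20 marks securin and cyclin B for destruction, sister chromatids separate, and the cell divides at the spindle midzone. Most of the genes involved are transcribed in a wave in G2 and M phase, through promoters that often hold CCAAT boxes, bound by NF-Y, and a cell cycle genes homology region (CHR), bound by MuvB complexes with B-Myb and Foxm1 or, for repression, as DREAM. Embryonic stem cells have a short G1 phase and express these genes strongly.

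Total counts were 27807385 to 29079670 in R783H and 20894277 to 25174121 in WT, so each R783H library was deeper than each WT library. Levels are given as CPM, counts normalised for depth and scaled with TMM factors, which correct for composition. At this depth 3 counts equal 0.0998 to 0.149 CPM. Trim71 itself stood at 152, 129 and 150.5 CPM in R783H A, B and C and at 131, 131 and 159 CPM in WT, and was not called (log2 fold change 0.03, SE 0.08, adjusted p = 0.743). Counts per gene cannot show the residue change. The 12 markers of pluripotent stem cells listed for this check were abundant, with a summed level of 8135 to 8273 CPM in R783H and 8281 to 8371 CPM in WT. Of these 12 genes 4 were called higher and 4 lower, with log2 fold changes from -0.67 for Utf1, the single one past 1.5-fold, to 0.31 for Fgf4. These shares are near those over all genes tested, 33.5% higher and 30.9% lower. The 8 fibroblast markers summed to 3.21 to 4.26 CPM in R783H and 4.03 to 4.80 CPM in WT, and 2 of them had 3 counts or fewer in every library. Of these 8 genes 4 were tested and Thy1 was the single one called, lower, beside 30.9% of all genes tested. The 6 endoderm markers summed to 9.02 to 10.1 CPM in R783H against 4.28 to 6.68 CPM in WT. Of these 6 genes 4 were tested and 2, Gata4 and Sox17, were called higher, beside 33.5% of all genes tested. These 2 rose at low levels beside the changes below. The part of the endoderm markers in those changes was not tested.

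Promoters are shown first because they are what many of these genes have in common and the choice of genes did not use them. The RefSeq promoter table of GRCm38.p6, the assembly also called mm10, held 44 windows for 41 of the 50 genes, each from 250 bases before to 50 bases after a transcription start. The letters TTTGAA or TTCGAA, on either strand, are the core of the CHR, and CCAAT on either strand is the core of the NF-Y box. The motifs can share at most 1 letter, and TTCGAA reads the same on both strands. The 150 bases before the start are printed for the 3 genes with the largest decrease among those with both motifs in that stretch, and for Smc2, the gene with the smallest change among those with both that were not called. Capitals mark CHR and CCAAT letters, and ATTGG and TTCAAA are CCAAT and TTTGAA read on the other strand.
Cdc20 (chr4:118437344-118437493, minus strand): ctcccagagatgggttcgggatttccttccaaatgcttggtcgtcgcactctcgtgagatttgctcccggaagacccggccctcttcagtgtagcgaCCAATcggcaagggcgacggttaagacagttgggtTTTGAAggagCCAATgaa
Ube2c (chr2:164769779-164769928, plus strand): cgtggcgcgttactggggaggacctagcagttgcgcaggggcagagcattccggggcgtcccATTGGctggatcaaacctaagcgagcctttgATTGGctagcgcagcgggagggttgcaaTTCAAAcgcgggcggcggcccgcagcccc
Cdk1 (chr10:69352913-69353062, minus strand): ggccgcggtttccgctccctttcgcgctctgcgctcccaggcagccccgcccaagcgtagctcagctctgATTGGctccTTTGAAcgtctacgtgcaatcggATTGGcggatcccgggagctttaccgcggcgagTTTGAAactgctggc
Smc2 (chr4:52439071-52439220, plus strand): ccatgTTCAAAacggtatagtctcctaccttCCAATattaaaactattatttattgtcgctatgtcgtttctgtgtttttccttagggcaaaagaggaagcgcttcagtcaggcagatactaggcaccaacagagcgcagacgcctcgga
In Cdc20 the CHR core starts 18 bases before the transcription start, between CCAAT boxes that start 53 and 8 bases before it. Cdk1 holds CHR cores starting 71 and 15 bases before its start, each downstream of a CCAAT box. In the printed stretch of Smc2 both motifs lie more than 100 bases from the start, and its window holds another CHR core that starts 27 bases after the start.

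A CHR core was found in 34 of the 44 windows of these genes (77.3%), where 19.2% of all 32851 windows in the table hold one. It started within 50 bases of the transcription start in 30 windows (68.2%) against 5.31% of all windows. CCAAT was present in 34 windows (77.3%, against 37.4%), 2 or more copies in 22 (50%, against 11.7%), and both motifs in 31 (70.5%, against 7.52%). Of 31 windows of genes called lower in R783H 24 held a CHR core (77.4%), and of 11 windows of genes not called 9 did (81.8%). It started within 50 bases of the transcription start in 21 (67.7%) and 8 (72.7%) of these windows, so Smc2 as printed does not stand for the genes not called. These are matches of letters, which show no binding.

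Most of the mitosis genes were lower in R783H. Of the 50 genes 35 were called lower and 3 higher by edgeR's quasi-likelihood test, at a Benjamini-Hochberg adjusted p under 0.05 over all genes tested, and 12 were not called. Much of the transcriptome differed between the groups: 64.5% of all genes tested were called, 30.9% lower and 33.5% higher, so the total of 38 calls (76%) is near that background. By direction, 70% of the 50 genes were called lower and 6% higher. The shares of 30.9% lower and 33.5% higher over all genes tested are also the background of each role below. Among the 8172 genes that lie in the same range of levels as these 50, from 14.4 to 769 CPM, 38.3% were called lower and 33.7% higher. The median log2 fold change of the 50 genes was -0.34, a decrease of 1.27-fold, against 0.03 over all genes tested. Called decreases of 1.5-fold or more were found in 16 genes (32%), where the share is 9.54% over all genes tested and 6.8% over those of the same range of levels. No increase reached 1.5-fold, against 15.1% of all genes tested. In 36 genes every R783H library lay below every WT library, which was so for 33.1% of all genes tested, and in 1 every R783H library lay above (background 35%). Summed over the 50 genes the level was 7399, 7234 and 7585 CPM in R783H A, B and C and 9623, 9579 and 9589.7 CPM in WT, which puts R783H at 77.2% of WT. In bulk RNA, fewer cells in mitosis and less of these mRNAs per cell cannot be told apart. The plot of fold changes by role gives each gene with its error.

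**Figure D1:**
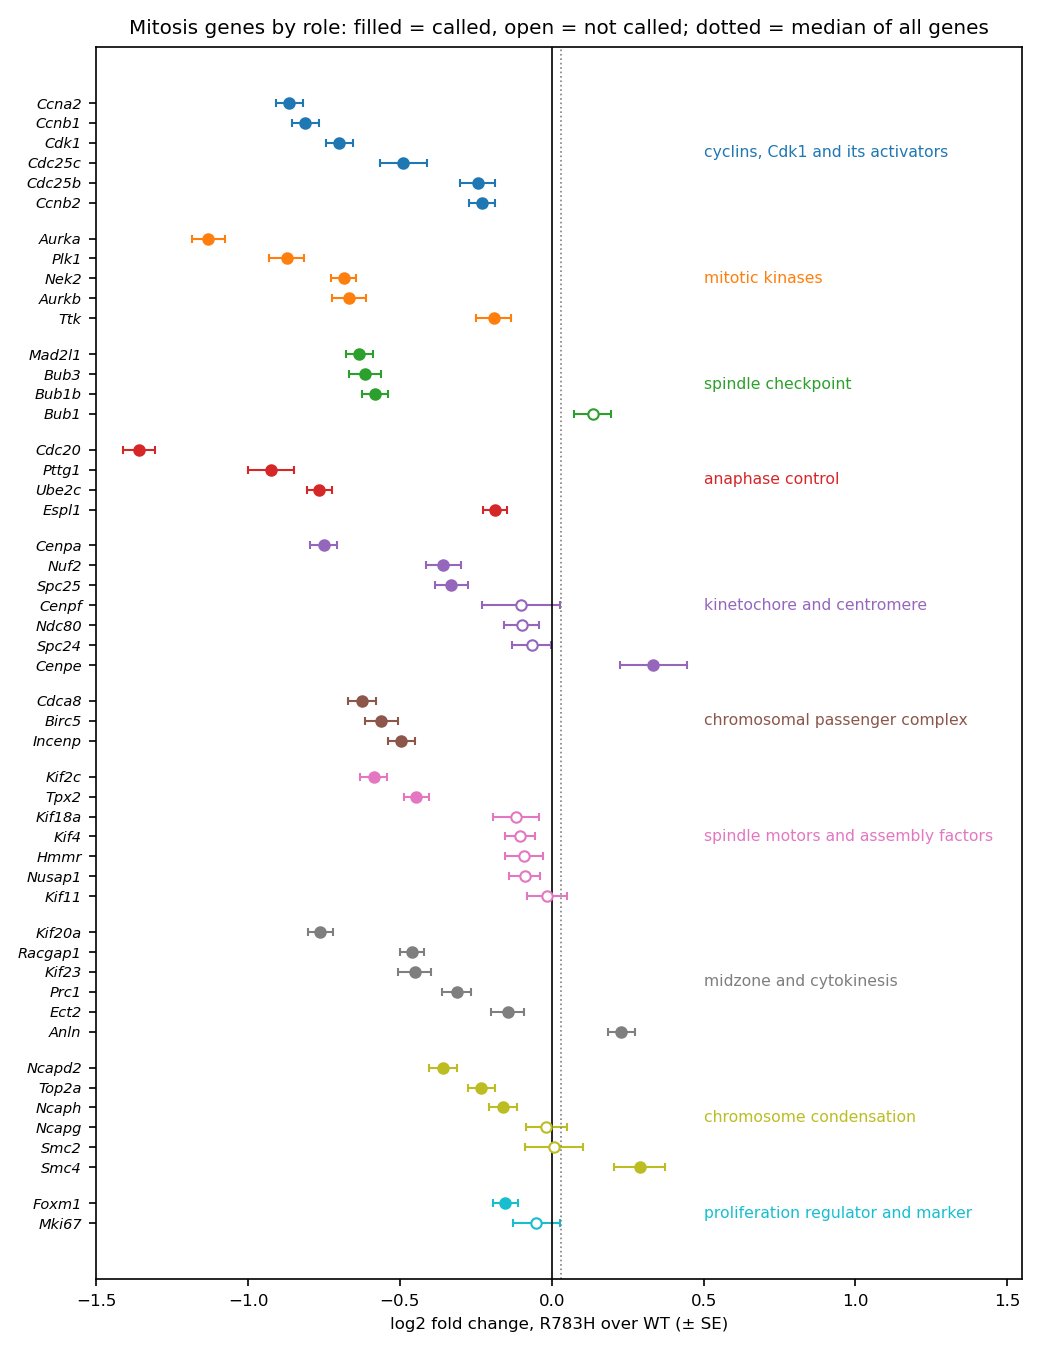
Log2 fold change of R783H over WT (x axis, point with its SE) for the 50 mitosis genes, ordered by role, with filled points for called genes and open points for genes not called; the dotted line is the median of all genes tested, 0.03. The 19 genes of the cyclin, kinase, checkpoint and anaphase groups lie at or below -0.19 except Bub1 at 0.13, while motors, condensins and kinetochore genes spread from -0.75 to 0.33.

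All 6 genes for cyclins, Cdk1 and its activating phosphatases, which together drive mitotic entry, fell, with a median of -0.59. Ccna2, encoding cyclin A2, which acts in S phase and G2 (Entrez 12428, chromosome 3), stood at 143, 138 and 150.2 CPM in R783H A, B and C and at 261, 260.3 and 262 CPM in WT, a difference on the log2 scale of -0.86 (SE 0.04), adjusted p 8.81e-08 (edgeR). Ccnb1, the main mitotic cyclin (Entrez 268697, chromosome 13, 100778739 to 100786486 in GRCm38), had 118, 126 and 119.8 CPM against 216, 215 and 207 CPM and fell 1.75-fold (log2 fold change -0.81, SE 0.04, adjusted p 1.17e-07, edgeR). Cdk1, their catalytic partner (Entrez 12534, chromosome 10, 69335146 to 69352912 in GRCm38), went from 212, 207 and 203 CPM in WT to 123, 133 and 127 CPM in R783H (log2 fold change -0.70, SE 0.05, adjusted p 3.30e-07, edgeR). In each of these 3 genes the groups were far apart and the R783H libraries lay close together. The second B-type cyclin, Ccnb2, changed much less, from 143 ± 2.35 to 122 ± 3.22 CPM, with SDs over 3 libraries each, as for the other means below (log2 fold change -0.23, SE 0.04). The phosphatases that remove the inhibitory phosphates from Cdk1 fell by 0.49 (SE 0.08) for Cdc25c and by 0.24 (SE 0.06) for Cdc25b on the log2 scale. Ccnb1 has near-identical copies in the pseudogenes Ccnb1-ps and Gm12856, so its counts are uncertain where reads fit more than 1 of them.

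All 5 mitotic kinases were lower, by very different amounts. Aurka, the Aurora kinase of centrosomes and spindle poles (Entrez 20878, chromosome 2, 172356190 to 172370886 in GRCm38), went from 246, 233 and 226 CPM in WT to 109, 112 and 101 CPM in R783H A, B and C. That is a 2.19-fold decrease (log2 fold change -1.13, SE 0.05, adjusted p 5.58e-08, edgeR), the second largest of the 50 genes. Plk1, the polo-like kinase that acts from mitotic entry to cytokinesis (Entrez 18817, chromosome 7), stood at 129.8, 149 and 131 CPM against 259, 249 and 244 CPM (log2 fold change -0.87, SE 0.06, adjusted p 3.81e-07, edgeR). R783H B was the highest of its group in both, and still far under WT. Nek2, a centrosomal kinase (Entrez 18005, chromosome 1), was at 116, 115 and 116 CPM in R783H and 188, 187 and 181 CPM in WT (log2 fold change -0.68, SE 0.04). Aurkb, the kinase of the chromosomal passenger complex (Entrez 20877, chromosome 11), was at 54.3, 59.3 and 54.6 CPM and 93.9, 88.2 and 85.4 CPM (log2 fold change -0.67, SE 0.06, adjusted p 1.77e-06, edgeR). Ttk, also called Mps1, which starts checkpoint signalling at kinetochores, changed least. It had 91.7, 79.3 and 90.0 CPM in R783H A, B and C and 99.4 CPM in each WT library (log2 fold change -0.19, SE 0.06, adjusted p 0.0122, edgeR). Ttk was not called when libraries were scaled by total count alone (adjusted p 0.126, edgeR).

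Of the 4 checkpoint genes 3 fell and 1 was not called. Bub1b, which encodes BubR1 (Entrez 12236, chromosome 2), Bub3 (Entrez 12237, chromosome 7) and Mad2l1 (Entrez 56150, chromosome 6) are the subunits that hold Cdc20 in the mitotic checkpoint complex, and all 3 fell. Bub1b had 239, 259 and 254 CPM in R783H A, B and C and 374, 376 and 373 CPM in WT (log2 fold change -0.58, SE 0.04, adjusted p 7.77e-07, edgeR). Mad2l1 had 96.6, 104 and 99.0 CPM against 156, 154 and 155 CPM (log2 fold change -0.63, SE 0.04, adjusted p 5.05e-07, edgeR). Bub3, which serves both Bub1 and BubR1, had 134, 145 and 133 CPM against 220.1, 213 and 199 CPM (log2 fold change -0.61, SE 0.05). Bub1, the kinase that recruits checkpoint proteins to kinetochores, was not called, with 150.5, 129 and 152 CPM in R783H and 127, 133 and 132 CPM in WT (log2 fold change 0.13, SE 0.06, adjusted p 0.0762, edgeR), its groups overlapping through R783H B. It was called higher when libraries were scaled by total count alone and when R783H B was left out.

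Anaphase control held the largest single change. Cdc20, the APC/C activator that the checkpoint restrains (Entrez 107995, chromosome 4, 118432901 to 118437343 in GRCm38), stood at 145, 163 and 148 CPM in R783H A, B and C and at 405, 389 and 376 CPM in WT. It fell 2.57-fold (log2 fold change -1.36, SE 0.05, adjusted p 1.99e-08, edgeR). Its promoter is the first of the 4 printed above, with a CHR core next to its start. A core starting within 50 bases was found in 67.7% of windows of genes called lower and in 72.7% of those not called. Pttg1, securin, the inhibitor of separase (Entrez 30939, chromosome 11), was at 9.62, 9.51 and 10.7 CPM against 19.3, 18.3 and 19.1 CPM, and fell 1.90-fold (log2 fold change -0.93, SE 0.08, adjusted p 1.53e-06, edgeR). Ube2c, the ubiquitin-conjugating enzyme of APC/C (Entrez 68612, chromosome 2), went from 257, 257 and 248 CPM to 150.2, 153 and 146 CPM (log2 fold change -0.77, SE 0.04, adjusted p 1.23e-07, edgeR). In all 3 the highest R783H library was well under the lowest WT library. Espl1, separase itself, changed only from 285 ± 3.50 to 250.3 ± 5.34 CPM (log2 fold change -0.19, SE 0.04), so the protease mRNA fell less in size than that of its inhibitor, a difference that was not itself tested.

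**Figure D2:**
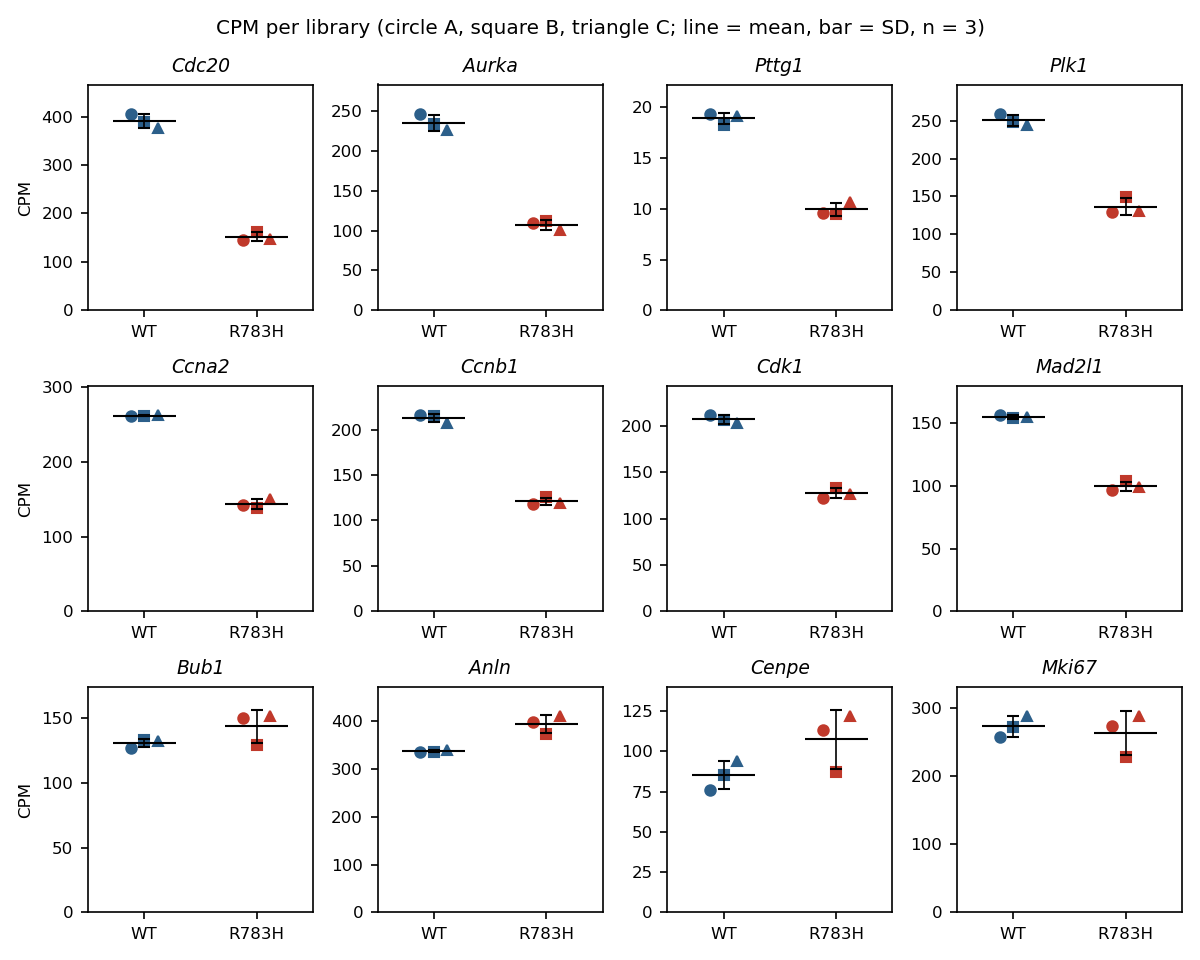
CPM (y axis, from 0) in each library for 12 of the mitosis genes, WT in blue and R783H in red, with circles for A, squares for B and triangles for C, a line at the mean and a bar for the SD (n = 3). Cdc20, Aurka, Pttg1, Plk1, Ccna2, Ccnb1, Cdk1 and Mad2l1 are lower in every R783H library, Anln is higher in each, and Bub1, Cenpe and Mki67 overlap, with the square of R783H B lowest in its group.

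Related genes were compared within each library as a ratio of counts, which no scaling factor can change. The ratio of Ccnb1 to Ccnb2 counts was 0.994, 1.04 and 0.955 in R783H A, B and C and 1.49, 1.51 and 1.47 in WT. Every R783H library lay well below every WT library, with an average of 0.995 ± 0.0409 against 1.49 ± 0.0160 (SD, n = 3). For Bub1b over Bub1 the ratio was 1.59, 2.00 and 1.67 in R783H and 2.94, 2.82 and 2.82 in WT, and for Aurka over Aurkb it was 2.01, 1.89 and 1.84 against 2.62, 2.64 and 2.64. The groups did not overlap in any of the 3 ratios. The differences on the log2 scale were -0.58, -0.71 and -0.46, each with a two-sided exact permutation p of 0.1, the smallest that 3 libraries against 3 can give, and 0.1 after Benjamini-Hochberg adjustment over the 3 pairs. These pairs were chosen as related genes after their values had been seen.

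At the kinetochore and centromere 3 of 7 genes fell, 1 rose and 3 were not called. Beside them, 30.9% of all genes tested were called lower and 33.5% higher. The median of the 7 genes was -0.10. Cenpa, the histone H3 variant that marks centromeres (Entrez 12615, chromosome 5), fell most, to 83.7, 86.2 and 86.2 CPM in R783H A, B and C from 147, 145 and 139 CPM in WT (log2 fold change -0.75, SE 0.04, adjusted p 1.79e-07, edgeR). The 4 subunits of the Ndc80 complex, which joins kinetochores to microtubules, did not share a call. Nuf2 fell from 60.8 ± 1.17 to 47.4 ± 3.28 CPM (log2 fold change -0.36, SE 0.06) and Spc25 from 54.8 ± 2.64 to 43.5 ± 1.32 CPM (log2 fold change -0.33, SE 0.05), whereas Ndc80 (log2 fold change -0.10, SE 0.06) and Spc24 (log2 fold change -0.07, SE 0.07) were not called. The motor Cenpe, which carries chromosomes to the spindle equator, was called higher (log2 fold change 0.33, SE 0.11, adjusted p 0.02, edgeR), but its 113, 86.9 and 122 CPM in R783H overlap its 76.2, 85.5 and 93.7 CPM in WT. Its call was lost in 6 of 17 alternatives, among them leaving out R783H A, R783H C, WT A or WT B, where the adjusted p from edgeR ran from 0.0538 to 0.0878. Cenpf, a large outer kinetochore protein, had 139, 100.3 and 144 CPM against 119, 135 and 157 CPM and was not called (log2 fold change -0.10, SE 0.13).

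In the chromosomal passenger complex, which corrects faulty attachments, Incenp, its scaffold, Birc5, which encodes survivin, and Cdca8, which encodes borealin, all fell, as did its kinase Aurkb. Cdca8 (Entrez 52276, chromosome 4) had 113, 122 and 118 CPM in R783H A, B and C and 188, 182 and 174 CPM in WT (log2 fold change -0.63, SE 0.05, adjusted p 9.25e-07, edgeR). Birc5 went from 170.5 ± 8.21 to 116 ± 6.17 CPM (log2 fold change -0.56, SE 0.05) and Incenp from 280.4 ± 3.20 to 199 ± 8.72 CPM (log2 fold change -0.50, SE 0.04). With Aurkb, the log2 fold changes of the 4 subunits lay between -0.67 and -0.50.

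Of 7 spindle motors and assembly factors 2 were called, both lower, a share near the 30.9% of all genes tested called lower. The median was -0.11. Kif2c, the microtubule depolymerase of centromeres, fell from 134 ± 4.35 to 89.2 ± 2.37 CPM (log2 fold change -0.59, SE 0.05), and Tpx2, the activator of Aurora A on spindle microtubules, from 310.1 ± 5.44 to 228 ± 6.96 CPM (log2 fold change -0.45, SE 0.04). The log2 fold changes of the other 5 were -0.12 (SE 0.08) for the length-controlling kinesin Kif18a, -0.11 (SE 0.05) for the chromokinesin Kif4, -0.09 (SE 0.06) for the spindle factor Hmmr, -0.09 (SE 0.05) for the microtubule-binding Nusap1 and -0.02 (SE 0.06) for Kif11, the motor that pushes spindle poles apart. Kif4 was not called although its R783H libraries all lay below WT, at 71.5, 68.3 and 72.3 CPM against 77.6, 77.7 and 73.0 CPM (adjusted p 0.0791, edgeR).

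Midzone and cytokinesis genes were all called, 5 lower and 1 higher. Kif20a, the kinesin that brings the passenger complex and Plk1 to the midzone (Entrez 19348, chromosome 18), had 163, 171 and 164 CPM in R783H A, B and C and 285, 283 and 277 CPM in WT (log2 fold change -0.76, SE 0.04, adjusted p 1.21e-07, edgeR). Both subunits of centralspindlin fell, Kif23 by 0.45 (SE 0.05) and Racgap1 by 0.46 (SE 0.04) on the log2 scale, and Prc1, the microtubule bundler of the midzone, fell by 0.31 (SE 0.05). Ect2, the exchange factor that activates RhoA at the cleavage site, fell by 0.15 (SE 0.05, adjusted p 0.0356, edgeR) and lost its call in 6 alternatives, with an adjusted p from 0.0507 to 0.341 in edgeR's test. These were leaving out any 1 WT library, scaling by upper quartiles or by total counts, and thinning to equal depth. Anln, anillin, the scaffold of the contractile ring, rose instead. It had 399, 374 and 411 CPM in R783H and 336, 336 and 339 CPM in WT (log2 fold change 0.23, SE 0.04, adjusted p 9.07e-04, edgeR), and it is the single gene of the 50 with every R783H library above every WT library.

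Among the 6 genes of chromosome condensation 3 fell, 1 rose and 2 were not called, beside 30.9% lower and 33.5% higher of all genes. The subunits of condensin I differed in sign. Top2a, topoisomerase II alpha, which untangles sister chromatids (Entrez 21973, chromosome 11), had 712, 670.3 and 739 CPM in R783H A, B and C and 820.3, 833 and 839 CPM in WT (log2 fold change -0.23, SE 0.04, adjusted p 8.03e-04, edgeR). The non-SMC subunits Ncapd2 and Ncaph fell, by 0.36 (SE 0.05) and 0.16 (SE 0.05) on the log2 scale, and Ncapg was not called (log2 fold change -0.02, SE 0.07). Of the 2 SMC subunits, Smc4 was called higher, with 287, 226 and 289 CPM against 209.9, 213 and 233 CPM (log2 fold change 0.29, SE 0.08, adjusted p 0.0105, edgeR), and Smc2 was not called (log2 fold change 0.01, SE 0.09). The groups of Smc4 overlapped through R783H B, and without R783H A its adjusted p was 0.0511 by edgeR's test. The decrease of Ncaph was not called with scaling by total counts alone (adjusted p 0.123, edgeR).

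Foxm1, a transcription factor that activates G2 and M phase genes (Entrez 14235, chromosome 6), fell slightly, with 119.5, 116 and 120.1 CPM in R783H A, B and C and 133, 132 and 130.1 CPM in WT (log2 fold change -0.15, SE 0.04, adjusted p 0.00735, edgeR), and lost its call with scaling by total counts alone (adjusted p 0.151, edgeR). Mki67, the gene of the proliferation marker Ki-67, had 274, 228 and 288 CPM in R783H and 258, 272 and 288 CPM in WT (log2 fold change -0.05, SE 0.08, adjusted p 0.587, edgeR). Its groups overlapped across most of their range.

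Among the R783H libraries B stood at one end of its group for most genes. It was the lowest of its group in 24 genes and the highest in 23, and the plot of deviations by library shows the split. It was lowest in all 3 genes called higher and in 11 of the 12 not called, and highest in 22 of the 35 called lower. How often R783H B was lowest or highest over all genes tested is not given here. The split can therefore not be called particular to these 50 genes. Transcripts of the 24 genes where it was lowest had a median GC content of 42.8%, against 50.3% for the 23 where it was highest. Without R783H B, 37 genes were called lower and 4 higher, where 34.3% and 34.7% of all genes were. The part of this library's deviation in single calls was tested only by leaving it out.

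**Figure D3:**
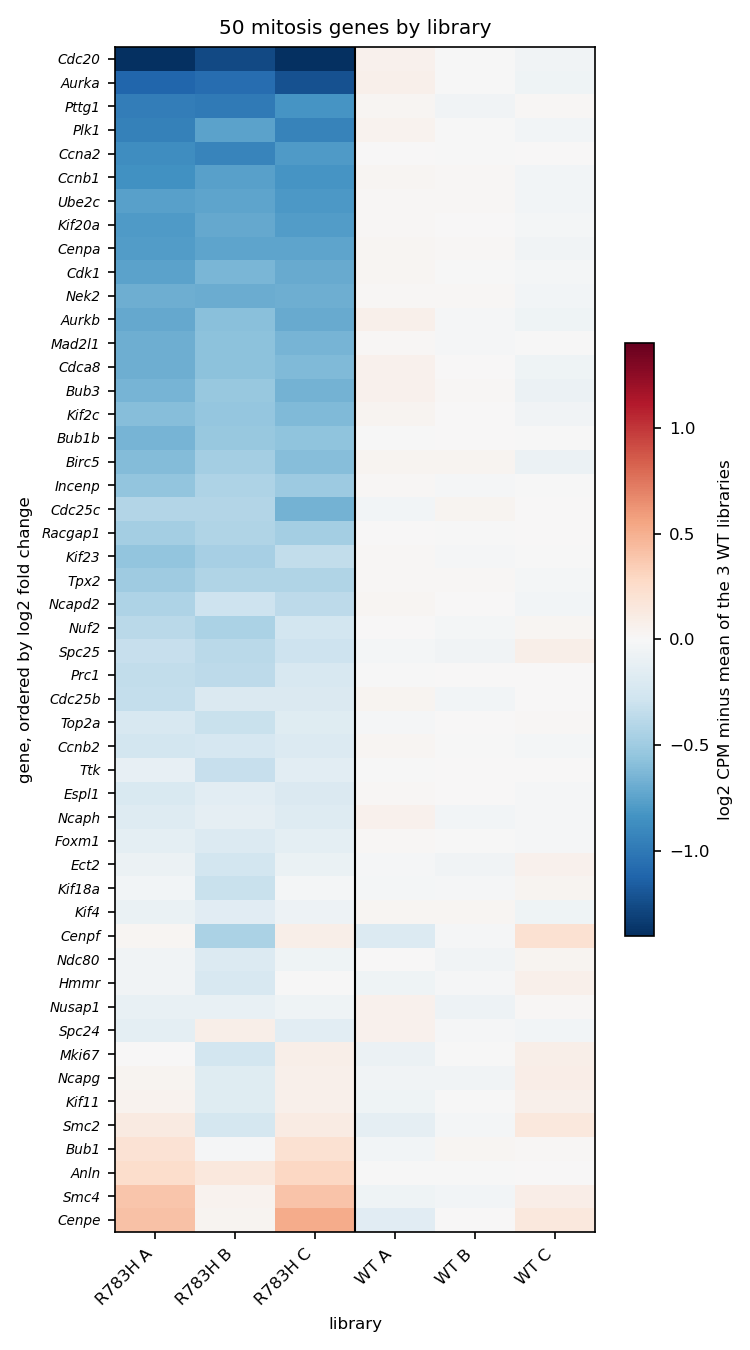
Log2 CPM minus the mean of the 3 WT libraries (colour, blue lower and red higher) for the 50 mitosis genes (rows, ordered by log2 fold change) in the 6 libraries (columns). The R783H columns are blue from Cdc20 at the top to the middle rows, and in the lowest rows R783H B is paler or bluer than R783H A and C.

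Fold changes within the set varied with transcript length and GC content. Across the 50 genes, Spearman's rho of the log2 fold change was 0.52 with the length of the longest GENCODE M21 transcript and -0.52 with its GC content, as a description over genes measured in the same 6 libraries. Over all 13067 genes with both values rho was 0.26 and -0.13. The 12 genes not called had a median length of 4397 nt and a median GC content of 42.0%, against 3358 nt and 47.9% for the 35 called lower. An offset was fitted to remove the trend with length and GC over all genes in each library. With it rho was 0.02 with length and 0.006 with GC over the 13067 genes. Across the 50 genes it was still 0.26 and -0.38, so the trend within the set was reduced and not removed. The offset left the leading decreases in place, with -1.27 for Cdc20, -1.08 for Aurka and -0.80 for Plk1, and it moved the long transcripts down. With it 45 genes were called lower and 2 higher, where 37.6% and 31.2% of the 13067 genes were, and the median was -0.46. All 35 genes called lower without the offset were called lower with it. Of the 12 genes not called without it 10 were called lower, Cenpf at -0.49, Mki67 at -0.40 and Kif18a at -0.40 furthest, while Bub1 (0.05) and Spc24 (0.01) were again not called. Smc4 (0.14) and Anln (0.09) stayed called higher, and the call of Cenpe ended (0.04).

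**Figure D4:**
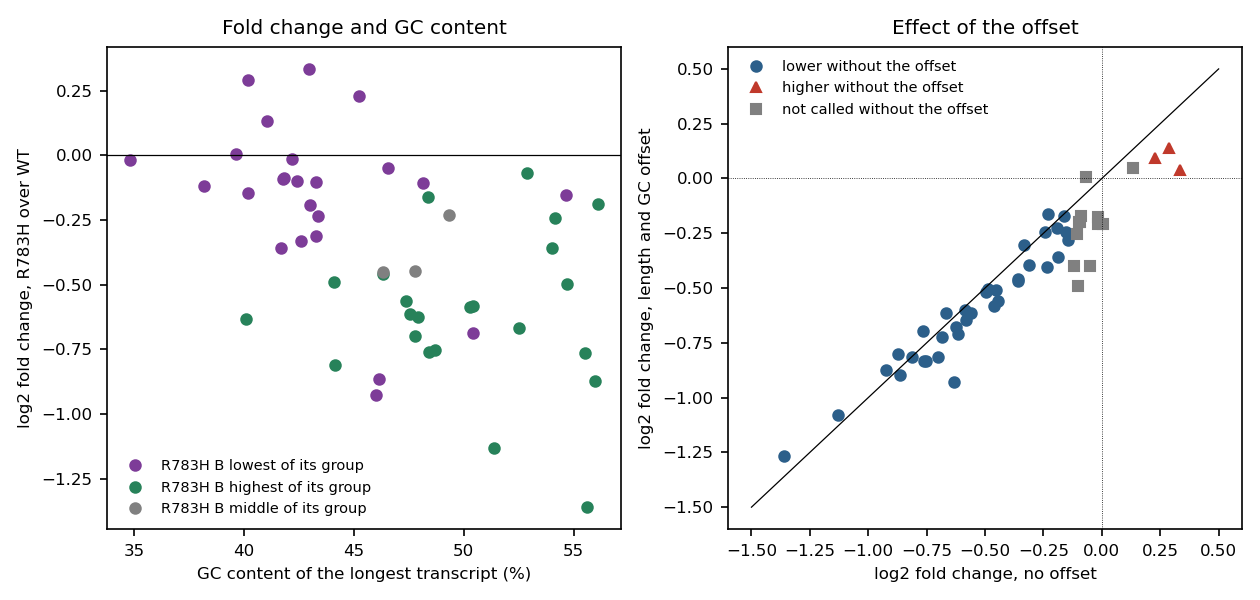
Left, log2 fold change of R783H over WT against the GC content (%) of the longest transcript for the 50 mitosis genes, coloured by whether R783H B was the lowest, middle or highest of its group. Right, the log2 fold change with the length and GC offset against that without it, with the line of equal values; 41 genes lie below the line, 45 being called lower with the offset.

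Other genes of mitosis were listed by complex from general knowledge, again with earlier results of these data known. Of 111 such genes 46 were called lower (41.4%) and 18 higher (16.2%), where 30.9% and 33.5% of all genes tested were, and the median was -0.10. Of these 4 fell by at least 1.5-fold (3.60%), a smaller share than the 9.54% of all genes tested. Scaling by total counts alone gave 37 lower and 27 higher, beside 25.4% and 40% of all genes. The length and GC offset gave 71 and 13, beside 37.6% and 31.2%. The shares of 30.9% lower and 33.5% higher are the background of each group that follows. Of 13 genes of mitotic entry 8 fell and 5 were not called, the decreases being led by the cyclin Ccnf (log2 fold change -0.77, SE 0.06) and by Cks1b (log2 fold change -0.70, SE 0.05) and Cks2 (log2 fold change -0.64, SE 0.05), which bind Cdk1. For that list the median was -0.30. Of 17 genes of APC/C and its regulators 8 fell and 2 rose. Fzr1, the activator that takes over from Cdc20 late in mitosis, fell from 236 ± 12.3 to 157 ± 10.8 CPM (log2 fold change -0.59, SE 0.06), and the subunit genes Cdc26 and Anapc11 fell by 0.58 (SE 0.06) and 0.56 (SE 0.06), whereas Cdc16 rose by 0.28 (SE 0.04). Of 30 further kinetochore and checkpoint genes 13 fell and 3 rose. Kntc1 (log2 fold change 0.53, SE 0.04) and Zwilch (log2 fold change 0.34, SE 0.06), subunits of the RZZ complex that recruits Mad1 and dynein, rose, while Zw10, the remaining subunit, fell (log2 fold change -0.20, SE 0.05). Of the Mis12 complex, which links the Ndc80 complex to centromeres, Pmf1 fell (log2 fold change -0.48, SE 0.06), Dsn1 rose (log2 fold change 0.25, SE 0.07), and Mis12 (log2 fold change -0.08, SE 0.06) and Nsl1 (log2 fold change 0.11, SE 0.05) were not called. Of 27 other motor, spindle and cytokinesis genes 11 fell, led by Kif22 (log2 fold change -0.52, SE 0.05), and 5 rose, led by Cltc (log2 fold change 0.41, SE 0.04), the clathrin heavy chain.

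Cohesin, which holds sister chromatids together until anaphase, had 6 of 15 genes called higher and 3 lower, not far from the 33.5% and 30.9% of all genes tested. The median was 0.10, or -0.05 with the length and GC offset. Nipbl, the cohesin loader, rose by 0.50 (SE 0.12), Sgo2a, the centromeric protector, by 0.48 (SE 0.11) and Smc1a by 0.44 (SE 0.06), while Cdca5, sororin, fell by 0.48 (SE 0.06). None of the 3 condensin II genes was called by edgeR's test, 0 of them had an unadjusted p under 0.05, DESeq2 called 1 and limma 0. Of the 6 genes of MuvB and B-Myb 3 fell and 2 rose, too few to set against the background of 30.9% and 33.5%. Mybl2, which encodes B-Myb, fell from 539 ± 17.3 to 472 ± 26.6 CPM (log2 fold change -0.19, SE 0.05), Lin37, a subunit linked to repression by DREAM, fell by 0.48 (SE 0.09), and Lin52 rose by 0.36 (SE 0.10) at 9.62 to 12.4 CPM on average.

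Genes of S phase, another wave of cell cycle transcription, were mostly lower too. Of 30 genes 26 were called lower and 1 higher, where 30.9% and 33.5% of all genes tested were, with a median of -0.33, beside the -0.34 of the mitosis genes. Ccne1, cyclin E1, fell from 305 ± 9.83 to 98.6 ± 4.44 CPM (log2 fold change -1.63, SE 0.05), more than any of the 50 mitosis genes, and Rrm2, a subunit of ribonucleotide reductase, fell by 1.01 (SE 0.05). E2f1 rose by 0.33 (SE 0.06).

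**Figure D5:**
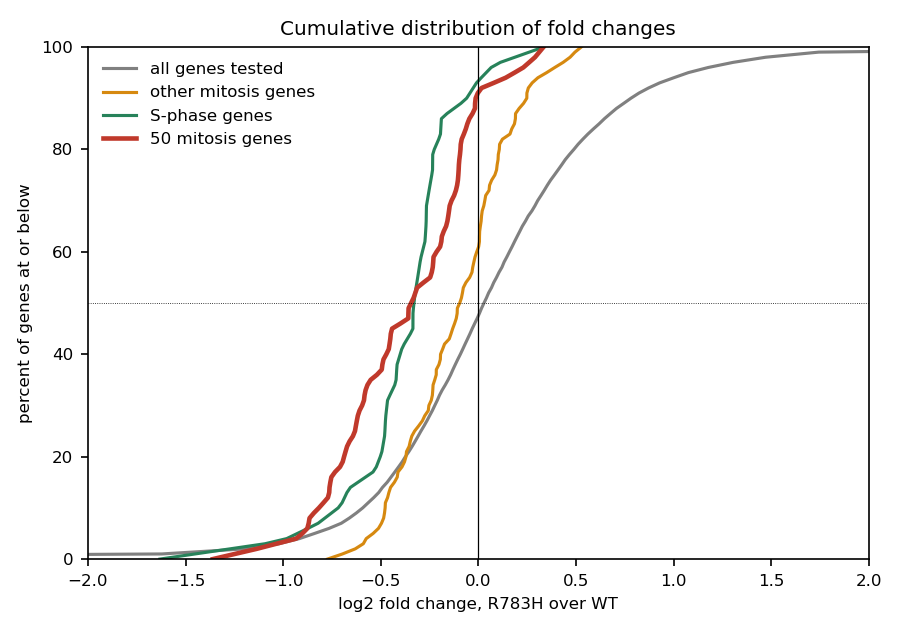
Percent of genes (y axis) with a log2 fold change of R783H over WT at or below the value on the x axis, for the 50 mitosis genes, 111 other mitosis genes, 30 S-phase genes and all 14199 genes tested. The curves of the mitosis and S-phase genes cross 50% at -0.34 and -0.33, left of the other mitosis genes at -0.10 and of all genes at 0.03.

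Of the 50 genes 22 share sequence with another annotated gene. In 14 an exon lies on an exon of a gene on the opposite strand, as for Kif20a and Cdc23 (1271 bases) or Ncapg and Lcorl (944 bases), and in 16 a stretch of at least 100 nt is at least 98% identical to a transcript of another gene. Whether the authors' counting used strand is not given in the sources used here, so counts of these genes are uncertain. Among the 28 genes without such sequence 19 were called lower (67.9%) and 2 higher (7.14%), where 30.9% and 33.5% of all genes tested were. Their median was -0.28, against 0.03 over all genes tested. Called decreases of 1.5-fold or more were found in 7 of them (25%), beside 9.54% of all genes tested. Of the 15 called genes with the largest change, Ccna2, Ccnb1, Cdc20, Plk1, Nek2, Ube2c, Cenpa, Kif20a and Cdca8 share sequence and the others, Aurka among them, do not.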

How the data were processed

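Poly(A) RNA of 6 libraries, 3 R783H and 3 WT, was analysed. The authors deposited raw counts per Entrez gene, 1 column for each library, named after its alignment file per the file header, and 0 columns lacked a sample. The submitters' processing notes name the build mm10 and the tools CASAVA 1.4, HISAT2 and SAMtools, and the counting tool, annotation and strand setting are not given in the sources used here. Symbols came from RefSeq (GRCm38.p6), which matched 25275 of 27179 identifiers.

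Genes were kept with edgeR's filterByExpr (minimum count 10, minimum total 15), scaled with TMM and tested with edgeR 4.0.16 (R 4.3.3) by the quasi-likelihood test with group as its single term, two-sided, with Benjamini-Hochberg adjustment over 14199 genes. A gene is called at an adjusted p under 0.05. The SE is the log2 fold change divided by the square root of F. The common biological coefficient of variation was 5.45%. Counts of reads without molecular identifiers understate error, so tests use the spread between libraries. On simulated data for this comparison with 14199 genes, 90 of 100 2-fold and 81 of 100 1.5-fold changes were called, with 10 calls among unchanged genes. The simulation changed few genes and held no deviation of a whole library, whereas 64.5% of all genes tested were called here. Its figures may therefore not hold for these data. Alternatives were RLE, upper-quartile and total-count scaling, other filters on low counts, DESeq2 1.42.0, limma-trend (limma 3.58.1), thinning to the smallest total, a term for the replicate letter, an offset from a smooth trend of each library with transcript length and GC content, and leaving out each library. Shared sequence was found from exon overlaps in GENCODE M21 and BLAST between its transcripts. The genes, lists and tests were chosen with earlier results of these data known. Values in every library were given for the 15 called genes with the largest change and 11 genes named for their role, and up to 3 called genes per direction were named from the other lists. Further genes among the 50, the ratios, and the other RZZ and Mis12 subunits were described with their values known.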

Additional observations from a re-analysis of the deposited data

How the results depend on the processing

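Over 17 alternatives, 32 of the 38 called genes kept their call, 31 of them lower. Each of the 12 genes not called was called under at least 1 alternative. The median log2 fold change of the 50 genes moved to -0.26 with total-count scaling, to -0.46 with the length and GC offset, alone or with the replicate block, and to -0.28 over the 28 genes without shared sequence, an alternative chosen after seeing the data. Of the 111 other mitosis genes 71 were called lower and 13 higher with the offset, and 72 and 14 with the offset and the block, against 46 and 18. Over all genes, 37.6% were called lower and 31.2% higher with the offset, alone or with the block, against 30.9% and 33.5%. Leaving out each library in turn gave 1 to 4 mitosis genes called higher (1 without R783H A, 2 without R783H C, WT A or WT B) and 34 to 37 called lower. Over all genes tested in these fits, 29.2% to 34.7% were called higher and 27% to 34.3% lower. The cause of these shifts was not tested.

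Signs near 0 changed for 6 genes not called. With total-count scaling the log2 fold changes were 0.0143 for Spc24, 0.0657 for Kif11, 0.0642 for Ncapg and 0.0312 for Mki67. With the offset Spc24 was at 0.00584 and Smc2 at -0.208, and with the block added at 0.00541 and -0.209. Smc2 was at -0.0161 with RLE factors and at -0.0163 with DESeq2. Leaving out each library in turn gave -0.208 to 0.0224 for Cenpf, -0.0728 to 0.0344 for Kif11, -0.0741 to 0.0296 for Ncapg, -0.0726 to 0.0952 for Smc2 and -0.132 to 0.0208 for Mki67.

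Whether equal letters mark paired libraries is not given, and correlations over 3 libraries per group cannot decide it. Deviations of same-letter libraries correlated at -0.07, 0.0068 and 0.085, and not every library correlated best with its own letter. With the letter as a replicate block 35 mitosis genes were again lower and 3 higher, where 31.1% and 34.1% of all genes tested were. In either direction 9260 genes were called with the block, against 9152 without it.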

Other observations

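Levels of different genes can be compared only per length, here as CPM per kilobase of the longest annotated transcript, which may not be the form these cells use. On that scale Cdc20 was the most abundant of the 50 mitosis genes in each WT library, at 218 on average, ahead of Top2a at 159 and Ncapd2 at 142. In R783H it averaged 84.8 and stood in place 4, behind Top2a at 135, Ncapd2 at 111 and Anln at 85.8. In R783H B Cdc20 was above Anln, so places 3 and 4 were not stable across libraries. Anln moved from place 13 to place 3. Kif18a was the least abundant in WT, at 6.53.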
